A study of Rattus norvegicus with 12 samples.

Results

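The genes described here are 9 of cholesterol synthesis and its control, measured in rat liver: the enzyme genes Mvd, Idi1, Ggps1, Fdft1, Sqle, Tm7sf2 and Msmo1, the transcription factor gene Srebf2 and the sterol sensing gene Insig1. They were chosen with earlier results of these data known. Each was matched by name in the annotation of the array, where a probe set had to carry exactly 1 gene symbol. All 9 were found, with 1 probe set each, among 19418 probe sets, of which 13327 carry 1 symbol. The 12 livers came from Sprague Dawley rats that were housed singly with free access to food under a light and dark cycle, and each gave 1 array. In the first group 4 rats ate NO-naproxen, a naproxen molecule with a nitric oxide donor attached, at 550 mg/kg of diet for 7 days. In the next, 4 rats ate naproxen itself, a pain-relieving inhibitor of the cyclooxygenase enzymes, at 400 mg/kg of diet for the same time. The 4 controls had diet with neither drug. The 2 drug doses differ, and the hour of sampling and the sex and age of the rats were not stated in the sources used here.

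Cholesterol is made from acetyl units through mevalonate and a chain of isoprenoids, and the liver is a main site of this synthesis. When sterols in the endoplasmic reticulum run low, the protein SCAP carries SREBP2, the product of Srebf2, to the Golgi, where proteases release a fragment that switches on the enzyme genes of the pathway. INSIG proteins hold SCAP back when sterols are plentiful, and Insig1 is itself a target of SREBP. In pathway order, Mvd makes isopentenyl diphosphate and Idi1 converts it to its isomer. At the branch point Ggps1 makes geranylgeranyl diphosphate for the prenylation of proteins, while Fdft1, squalene synthase, is the first enzyme committed to sterols. Sqle, squalene epoxidase, is a rate-limiting enzyme. Tm7sf2 and Msmo1 act on the sterol ring after lanosterol, as a reductase and as the oxidase that removes methyl groups.

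SREBP works beside the factors NF-Y and Sp1 at promoters of this pathway, so the promoter windows were searched on both strands for letters of their sites. The windows are those of RefSeq for build GRCr8, from 250 bases before to 50 bases after the start of the gene, and 7 of the 9 genes were matched. No window is shown for Sqle or Fdft1. Those of Msmo1 (chr16:29746863-29747162, + strand), Mvd (chr19:67414925-67415224, - strand) and Insig1 (chr4:8057720-8058019, - strand) are given 5′ to 3′ along the gene, since Msmo1 and Mvd were among the lower genes described below and Insig1 is a known target of SREBP. Capitals mark CCAAT, the NF-Y box, on either strand, so that ATTGG is the same box on the other strand.
Msmo1: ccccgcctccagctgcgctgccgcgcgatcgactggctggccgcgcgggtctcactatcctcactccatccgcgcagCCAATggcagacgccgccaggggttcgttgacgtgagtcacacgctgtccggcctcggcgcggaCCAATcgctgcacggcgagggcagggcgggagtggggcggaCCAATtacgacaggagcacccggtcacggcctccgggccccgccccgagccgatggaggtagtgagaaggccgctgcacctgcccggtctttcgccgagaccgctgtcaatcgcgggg
Mvd: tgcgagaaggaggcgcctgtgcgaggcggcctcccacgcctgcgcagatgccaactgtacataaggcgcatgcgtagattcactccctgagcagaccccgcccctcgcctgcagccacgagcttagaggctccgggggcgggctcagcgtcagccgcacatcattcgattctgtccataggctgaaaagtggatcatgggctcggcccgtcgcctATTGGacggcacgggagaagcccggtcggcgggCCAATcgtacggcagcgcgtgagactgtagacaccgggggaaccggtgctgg
Insig1: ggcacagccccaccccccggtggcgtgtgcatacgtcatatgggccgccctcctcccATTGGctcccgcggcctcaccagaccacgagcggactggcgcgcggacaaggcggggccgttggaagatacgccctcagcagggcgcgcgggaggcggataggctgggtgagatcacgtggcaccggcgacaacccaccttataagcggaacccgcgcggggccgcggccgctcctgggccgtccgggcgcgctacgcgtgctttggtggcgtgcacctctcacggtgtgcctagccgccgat
Msmo1 held 3 of these boxes, which begin 173, 109 and 68 bases before its start. Mvd held 2, which begin 35 and 2 bases before the start, and Insig1 held 1, which begins 193 bases before it. At least 1 box was matched in each of the 7 windows, against 37.5% of all 33469 windows of this length in the table. The letters GGGCGG, the Sp1 box, were matched in 5 of the 7 windows (Insig1, Msmo1, Mvd, Srebf2 and Tm7sf2), against 33.1% of all. TCACNCCAC, a form of the sterol regulatory element, was matched in 0 of the 7 and in 1.12% of all. No match of one motif overlapped a match of another in these windows, and a match describes letters only.

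The means of all 9 genes over the 12 arrays were above 6.44 on the log2(intensity + 16) scale used for every test, where 6.44 is the 95th percentile of 970 odorant and pheromone receptor probe sets taken as background. The dimmest was Ggps1, at 6.98. The arrays differed in how widely their signals spread. The interquartile range of an array's log2 values was 2.07 to 2.62 in NO-naproxen livers, 2.20 to 2.53 in naproxen livers and 1.94 to 2.37 in control livers, and the 2 narrowest arrays were control replicates 3 and 4. Hepatocyte markers, summed over 6 measured genes, had intensities of 42992 to 51783 in NO-naproxen livers, 42424 to 46053 in naproxen livers and 42515 to 49271 in control livers. Single markers went both ways against control. With NO-naproxen 3 were lower and 3 higher, with log2 fold changes of -0.12 to 0.50. With naproxen 4 were lower and 2 higher, at -0.42 to 0.62, and Tdo2 was the highest with each drug.

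With NO-naproxen, the 6 enzymes chosen from the line to sterols each averaged lower than in controls, from 1.17-fold for Fdft1 to 1.66-fold for Sqle. Sqle and Msmo1 stood lowest and the branch enzyme Ggps1 was higher. The regulators Srebf2 and Insig1 had log2 fold changes of 0.031 and -0.16. Their 95% intervals held 0, as did those of the enzymes Idi1, Fdft1 and Tm7sf2, so Insig1 was not set apart from these enzymes. With naproxen the same 6 enzymes also averaged lower than in controls, with log2 fold changes of -0.41 for Msmo1 to -0.12 for Idi1. Of 10 other measured enzymes of cholesterol synthesis, 7 had a log2 fold change below 0 and 3 above it with each drug. Their median was -0.069 with NO-naproxen and -0.065 with naproxen, and 0 passed at an unadjusted limma p under 0.05. None of these differences passed an adjusted p under 0.05 in limma with Benjamini-Hochberg adjustment over all probe sets, a test that called 0% of probe sets in every comparison, with 2011, 2458 and 373 probe sets at an unadjusted p under 0.05 for NO-naproxen against control, naproxen against control and NO-naproxen against naproxen. Whole liver was measured, so fewer cells of a type and less RNA per cell cannot be told apart.

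**Figure D1:**
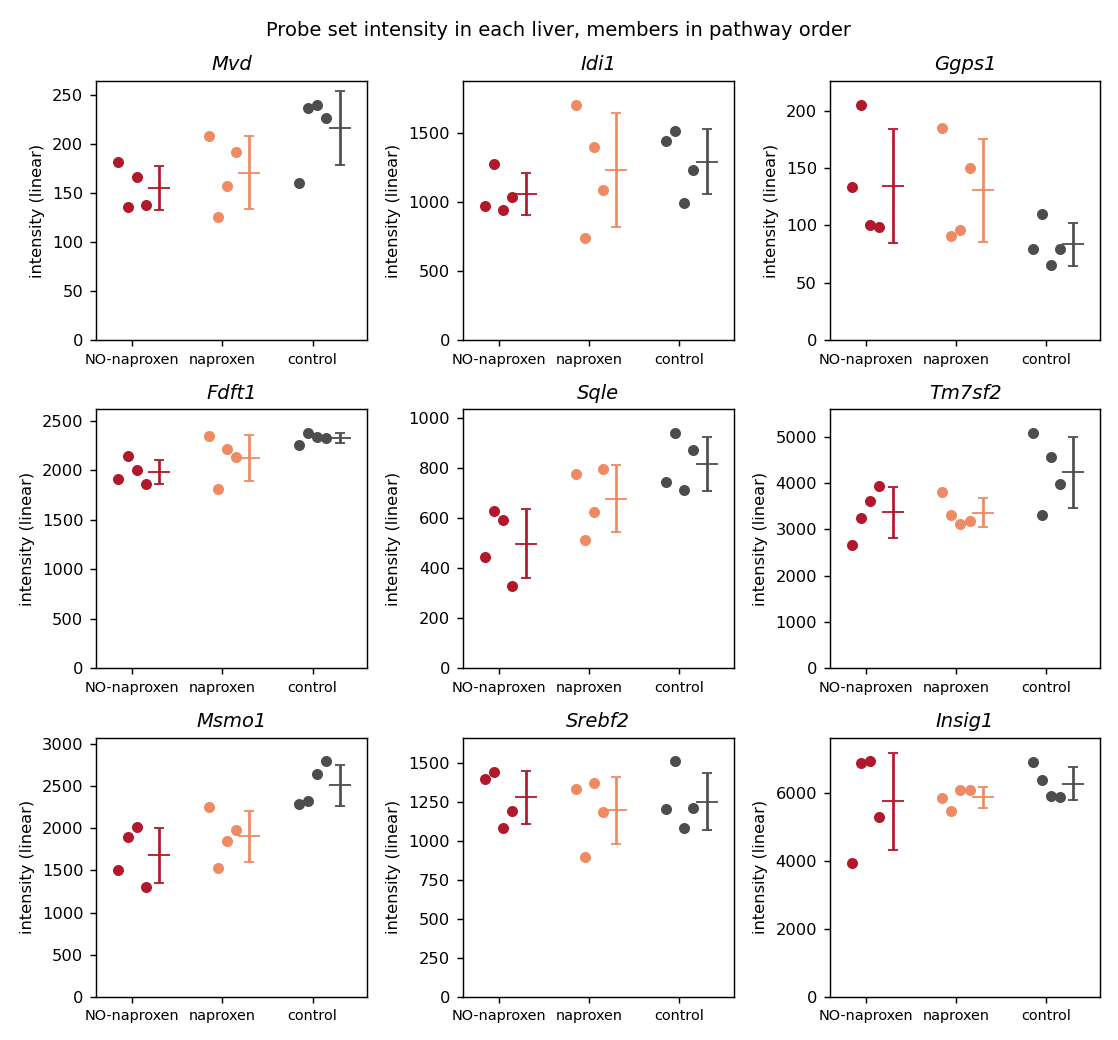
Deposited linear intensity of the 9 genes, one panel per gene in pathway order, with 1 point per liver and the mean with its SD for each diet of 4 rats. All 4 NO-naproxen points lie below all 4 control points for Fdft1, Sqle and Msmo1. Both drug diets overlap with control for Mvd, Idi1, Ggps1, Tm7sf2, Srebf2 and Insig1.

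Mvd, the decarboxylase that ends the mevalonate steps, had intensities of 182, 136, 167 and 138 in NO-naproxen livers, 209, 126, 158 and 192 in naproxen livers, and 160.4, 238, 241 and 227 in control livers. Both drug diets overlapped with control through 1 low control, replicate 1. The log2 fold change was -0.43 ± 0.19 with NO-naproxen and -0.32 ± 0.19 with naproxen (SE), each against control, with limma adjusted p of 0.468 and 0.457. Without control replicate 1 it was -0.56 with NO-naproxen and -0.45 with naproxen, and without the 2 narrowest arrays -0.31 and -0.20. Idi1, the isomerase, had 972, 1280.0, 941 and 1039 in NO-naproxen livers, 1709, 738, 1402 and 1085 in naproxen livers, and 1441, 1514, 992 and 1234 in control livers. Naproxen livers held both the highest and the lowest of the 12 values. Its log2 fold changes were -0.28 ± 0.23 with NO-naproxen and -0.12 ± 0.23 with naproxen, and the naproxen value turned to 0.10 without naproxen replicate 2.

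Fdft1, squalene synthase, had intensities of 1912, 2145, 2000.2 and 1864 in NO-naproxen livers, 2348, 1807, 2210.0 and 2137 in naproxen livers, and 2258, 2376, 2333 and 2331 in control livers. Every NO-naproxen value was below every control value, and 3 of the 4 naproxen values were. The controls lay close together. The SD on the log2 scale was 0.088 with NO-naproxen, 0.16 with naproxen and 0.03 in controls (n = 4 each). The log2 fold change was -0.23 ± 0.15 with NO-naproxen and -0.13 ± 0.15 with naproxen against control, with limma adjusted p of 0.493 and 0.679.

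Sqle, the epoxidase, had intensities of 446, 628, 593 and 329 in NO-naproxen livers, 777, 513, 626 and 797 in naproxen livers, and 746, 942, 714 and 873 in control livers. The 4 NO-naproxen livers lay below the 4 controls, and the naproxen livers overlapped with both. On the log2 scale the means were 8.97 ± 0.41 with NO-naproxen, 9.42 ± 0.29 with naproxen and 9.70 ± 0.18 in controls (SD, n = 4). The log2 fold change of NO-naproxen against control was -0.73 ± 0.21 (SE), with a 95% interval of -1.18 to -0.28 and an unadjusted limma p of 0.00356. Its adjusted p was 0.468, and ranged from 0.0675 to 1.000 over 19 alternatives to the processing. For naproxen against control the log2 fold change was -0.28 ± 0.21, with an interval of -0.73 to 0.18. Sqle met the criterion of the study, which asks for an unadjusted p below 0.05 and at least a 1.5-fold change, with NO-naproxen. It did so in 18 of the 19 alternatives, the exception being the fit without NO-naproxen replicate 4, the lowest array, at -0.55.

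Msmo1, the methylsterol oxidase, had intensities of 1505, 1893, 2012 and 1308 in NO-naproxen livers, 2249.6, 1529, 1854 and 1982 in naproxen livers, and 2293, 2319, 2639 and 2793 in control livers. Here the livers of both drug diets lay below all 4 controls and overlapped with each other. The means were 10.71 ± 0.29 with NO-naproxen, 10.89 ± 0.23 with naproxen and 11.30 ± 0.14 in controls on the log2 scale (SD, n = 4). The log2 fold change was -0.59 ± 0.18 with NO-naproxen and -0.41 ± 0.18 with naproxen (SE), each against control, with 95% intervals of -0.98 to -0.21 and -0.79 to -0.0211. Unadjusted limma p-values were 0.00489 and 0.0399, and adjusted ones 0.468 and 0.388. With NO-naproxen Msmo1 was 1.51-fold lower, close to the bound of the study's criterion, which it met in 11 of 19 alternatives. Among the others were leaving out NO-naproxen replicate 1 (-0.55) or 4 (-0.48) and control replicate 3 (-0.57) or 4 (-0.54). Without both narrowest arrays the log2 fold change was -0.47 with NO-naproxen and -0.29 with naproxen.

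Tm7sf2, the sterol reductase, had intensities of 2661, 3247, 3615 and 3940.0 in NO-naproxen livers, 3817, 3315, 3123 and 3176 in naproxen livers, and 5079, 3307, 4566 and 3969 in control livers. Control replicate 2 lay among the drug-fed livers and the other 3 controls above all of them. The log2 fold change was -0.33 ± 0.18 with NO-naproxen and -0.32 ± 0.18 with naproxen against control, with limma adjusted p of 0.468 and 0.441.

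Ggps1, the enzyme of the geranylgeranyl branch, had intensities of 133, 206, 101 and 98.5 in NO-naproxen livers, 185, 90.8, 95.7 and 150.3 in naproxen livers, and 79.8, 110.2, 65.7 and 79.2 in control livers. Of the 4 controls, 3 lay below every drug-fed liver, and control replicate 2 lay among them. The log2 fold change was 0.56 ± 0.25 with NO-naproxen and 0.52 ± 0.25 with naproxen (SE), each against control, with limma adjusted p of 0.468 and 0.396. Ggps1 also followed the spread of the arrays over all 12, with Pearson's r = 0.817 (permutation p = 0.00113, adjusted 0.0102 over 9 genes) and Spearman's rho = 0.769 (permutation p = 0.00472, adjusted 0.0425). Without the 2 arrays farthest from the median spread r was 0.716, and for deviations from each diet's mean it was 0.723. The other 8 genes did not pass that adjustment, though r for deviations from each diet's mean was 0.807 for Srebf2 and 0.688 for Idi1. With the spread as a covariate the log2 fold change of Ggps1 was 0.18 with NO-naproxen and 0.18 with naproxen, and without the 2 narrowest arrays 0.40 and 0.36. After quantile normalization, which gives all arrays one spread, it was 0.61 with NO-naproxen and 0.65 with naproxen. Ggps1 met the study's criterion in 6 of 19 alternatives with NO-naproxen and in 5 with naproxen.

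Srebf2, which codes for SREBP2, had intensities of 1397, 1443, 1085 and 1195 in NO-naproxen livers, 1333, 899.7, 1371 and 1189 in naproxen livers, and 1206, 1511, 1085 and 1211 in control livers. The 3 ranges overlapped for most of their width. Its log2 fold change had a 95% interval of -0.35 to 0.41 for NO-naproxen and -0.45 to 0.31 for naproxen, each against control. Insig1, the sterol-dependent anchor of SCAP, had 3952, 6882, 6941 and 5316 in NO-naproxen livers, 5849.5, 5466, 6106 and 6109 in naproxen livers, and 6938, 6406, 5923 and 5895 in control livers. NO-naproxen livers held both the lowest and the highest of the 12 values, with an SD of 0.38 log2 units, against 0.075 with naproxen and 0.11 in controls. The interval of its log2 fold change was -0.55 to 0.23 for NO-naproxen and -0.48 to 0.30 for naproxen against control.

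**Figure D2:**
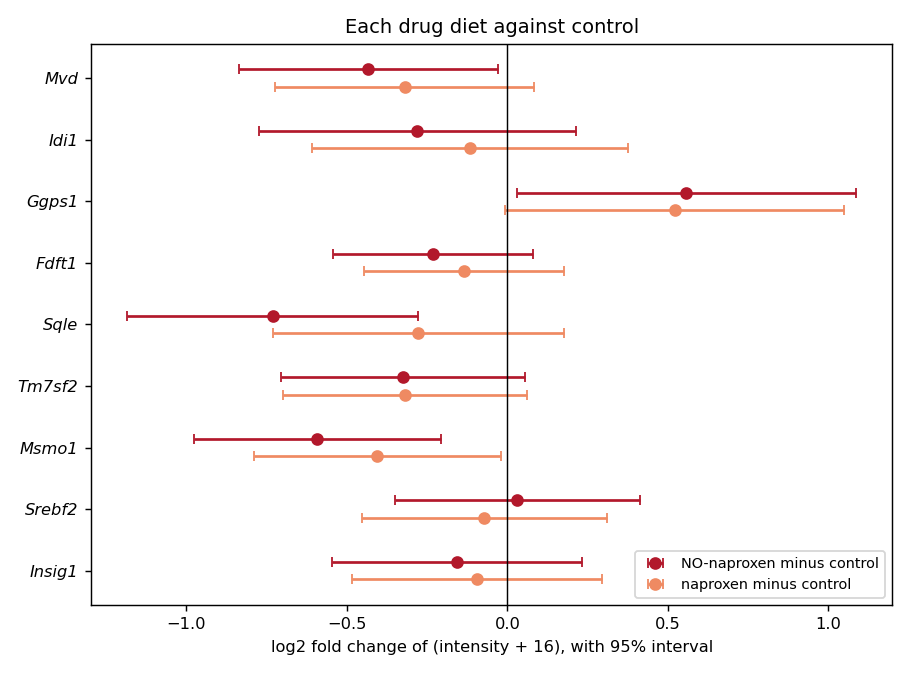
Log2 fold change of (intensity + 16) of each gene with its 95% interval from limma, for NO-naproxen against control (upper of each pair) and naproxen against control (lower), genes in pathway order from the top. Intervals that leave out 0 are those of Mvd, Sqle and Msmo1 below it and Ggps1 above it with NO-naproxen, and of Msmo1 with naproxen.

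Counted over the 9 genes, 7 had a log2 fold change below 0 with NO-naproxen, where 49.9% of all probe sets did, and the median was -0.28, beside 0.000437 over all. At an unadjusted p under 0.05, 3 were lower (Sqle, Msmo1 and Mvd), where 4.86% of probe sets were, and 1 was higher (Ggps1), where 5.49% were. The study's criterion was met by 2 on the lower side, against 2.02% of probe sets, and by 0 on the higher side, against 1.78%. Arrays did not overlap with control for 3 lower genes (Fdft1, Sqle and Msmo1), against 1.35%. With naproxen 8 of 9 were below 0, against 54.1% of probe sets, with a median of -0.13, beside -0.0341 over all. At an unadjusted p under 0.05, 1 was lower with naproxen (Msmo1), against 9.50% of all probe sets, and 0 were higher, against 3.16%. The study's criterion was met by 0 on the lower side, against 4.97%, and by 0 on the higher side, against 0.875%. Naproxen arrays did not overlap with control for 1 lower gene (Msmo1), against 2.40%. Both comparisons use the same 4 control arrays. Since the 9 genes were chosen with earlier results of these data known, the shares beside their counts are no independent test. Over the 3 diets at once, the moderated F test of limma gave unadjusted p-values of 0.0118 for Sqle and 0.0146 for Msmo1 and of 0.0709 or more for the other 7, where 7.91% of all probe sets were under 0.05, and the adjusted p of both was 0.583.

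All 6 enzymes chosen from the sterol line stayed below 0 with NO-naproxen in each of the 19 alternatives run. With naproxen they did in 18 of 19, the exception being the fit without naproxen replicate 2, where Idi1 was above 0. That rat had the lowest value of its diet for 5 of these 6 enzymes, all but Tm7sf2. Within the NO-naproxen diet, replicates 1 and 4 were lowest for both Sqle and Msmo1. Their differences from the control mean were -0.85 and -1.27 log2 units for Sqle, against -0.36 and -0.45 in replicates 2 and 3. For Msmo1 they were -0.73 and -0.93, against -0.40 and -0.31.

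**Figure D3:**
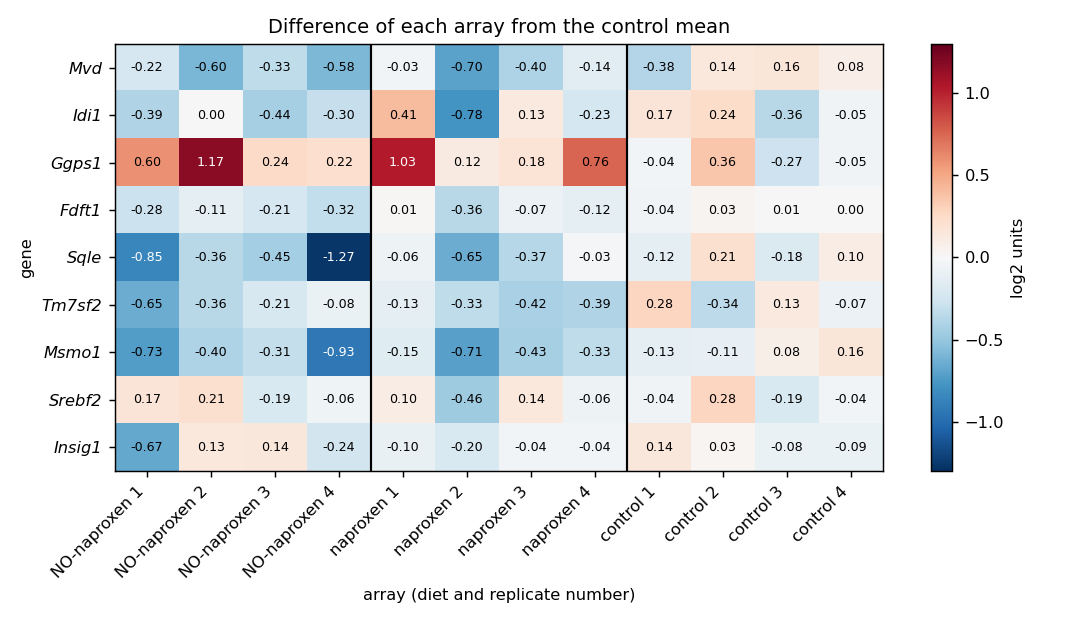
Difference of every array from the control mean in log2 units, genes in rows in pathway order and the 12 arrays in columns by diet. Values in the cells run from -1.27 for Sqle in NO-naproxen replicate 4 to 1.17 for Ggps1 in NO-naproxen replicate 2.

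NO-naproxen was also set against naproxen directly, at unequal doses. Of the 9 genes 7 were lower and 2 higher with NO-naproxen, where 35.9% of all probe sets were lower. None passed at an unadjusted p under 0.05, as 1.92% of all probe sets did, 0 met the study's criterion, as 0.572% did, and 0 had arrays that did not overlap, as 1.17% had. Sqle had the widest difference of the 9, with a log2 fold change of -0.45 ± 0.21 (SE), a 95% interval of -0.91 to 0.000595 and an unadjusted limma p of 0.0503 (adjusted p = 1.000). Without NO-naproxen replicate 4 it was -0.27, and without naproxen replicate 2 it was -0.58. The interval of the difference was -0.57 to 0.20 for Msmo1, -0.52 to 0.29 for Mvd and -0.49 to 0.56 for Ggps1. For 6 genes (Mvd, Idi1, Fdft1, Sqle, Msmo1 and Insig1) the mean intensity was lowest with NO-naproxen, next with naproxen and highest in controls. Neighbours in that order overlapped, except naproxen and control for Msmo1. Tm7sf2 averaged 3366 ± 548 with NO-naproxen and 3358 ± 317 with naproxen (intensity, SD, n = 4), and the interval of that log2 difference was -0.39 to 0.37.

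Levels of several enzymes went together over the 12 livers. The permutations mixed the diets, so their p-values also count differences between diet means, and r within diets was given no p-value. Sqle and Msmo1 had Pearson's r = 0.891 (permutation p = 0.000110, adjusted 0.00252 over 36 pairs) and Spearman's rho = 0.825 (permutation p = 0.00182, adjusted 0.0227) over the 12 arrays. Without the 2 arrays farthest from the median of Sqle r was 0.769, and for deviations from each diet's mean it was 0.826. Of the 36 pairs among the 9 genes, 6 passed the adjustment for both measures. The other 5 were Fdft1 with Msmo1 (r of 0.892 and 0.774 within diets), Fdft1 with Sqle (0.864 and 0.742 within diets), Idi1 with Fdft1 (0.778 and 0.812 within diets), Mvd with Msmo1 (0.760 and 0.539 within diets) and Mvd with Fdft1 (0.745 and 0.545 within diets). Idi1 with Srebf2 passed for Pearson's r alone, at 0.742 and 0.844 within diets (adjusted permutation p = 0.0347, and 0.107 for Spearman's rho of 0.650), and its r within diets was the highest of the 36. No pair with Tm7sf2, Insig1 or Ggps1 passed for either measure over the 12 arrays. Ggps1 with Sqle had r of 0.013 over the 12 arrays and 0.713 within diets. Within diets r of Ggps1 was also 0.69 with Srebf2, 0.67 with Fdft1 and 0.66 with Idi1. It was 0.44 with Msmo1, 0.36 with Mvd, 0.19 with Insig1 and -0.25 with Tm7sf2. All genes of an array share its RNA and its scaling. Within diets, r with the array spread was 0.807 for Srebf2, 0.723 for Ggps1 and 0.688 for Idi1. The part of the array spread in the pairs of these genes was not tested.

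**Figure D4:**
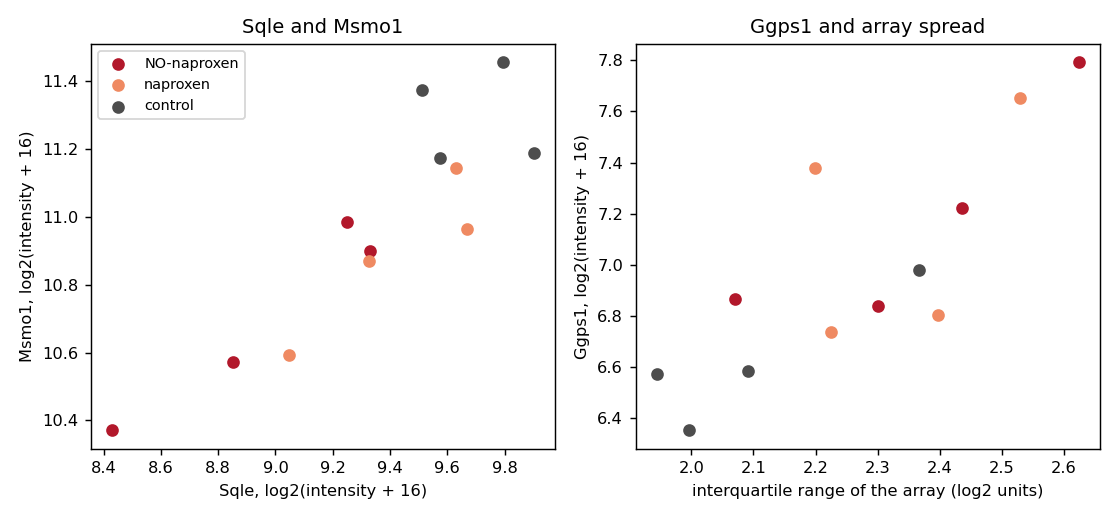
Left, Msmo1 against Sqle, and right, Ggps1 against the interquartile range of the array, on the log2(intensity + 16) scale with 1 point per liver coloured by diet. The 2 lowest livers for both Sqle and Msmo1 are of the NO-naproxen diet, and the 2 highest values of Ggps1 lie on the 2 arrays of widest spread.

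Among 9832 other genes above background, those most like Sqle over the 12 arrays by Pearson's r were Dact2 (0.941, and 0.906 within diets), Msmo1 (0.891, and 0.826 within diets), Mgarp (0.865, and 0.679 within diets), Fdft1 (0.864, and 0.742 within diets) and Pomgnt2 (0.846, and 0.731 within diets). Those most like Msmo1 were Gabrr1 (0.962, and 0.928 within diets), Fdft1 (0.892, and 0.774 within diets), Sqle (0.891, and 0.826 within diets), Wnt16 (0.882, and 0.714 within diets) and Aamdc (0.865, and 0.684 within diets). The ranking was given no p-value, so a place near its top is no test of a link. The other members stood lower. For Sqle, Mvd was at rank 41, Idi1 at 148, Insig1 at 172, Srebf2 at 2050, Tm7sf2 at 2121 and Ggps1 at 4810. For Msmo1, Mvd was at rank 38, Insig1 at 965, Tm7sf2 at 1040, Idi1 at 1217, Srebf2 at 3484 and Ggps1 at 6487.

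Of 15 other enzymes of cholesterol synthesis listed, 10 were measured, and the others were not analysed here. None of the 10 passed at an unadjusted p under 0.05 in any comparison. At that limma p, 4.86% of all probe sets were lower and 5.49% higher with NO-naproxen, and 9.50% and 3.16% with naproxen, each against control. With NO-naproxen 7 of the 10 were below 0, against 49.9% of all probe sets, and the median log2 fold change was -0.069. With naproxen 7 were, against 54.1%, and the median was -0.065. Lss, which closes the sterol ring after Sqle, averaged 935 ± 150.4 with NO-naproxen, 946 ± 246 with naproxen and 1156 ± 116 in controls (intensity, SD, n = 4). Its log2 fold change was -0.31 ± 0.20 with NO-naproxen and -0.32 ± 0.20 with naproxen (SE), each against control. Hsd17b7, a sterol ketoreductase, had -0.25 ± 0.21 with NO-naproxen and -0.081 ± 0.21 with naproxen. The late desaturase Sc5d had -0.084 ± 0.15 with NO-naproxen and -0.14 ± 0.15 with naproxen, and Lbr, which like Tm7sf2 codes for a sterol reductase, 0.31 ± 0.23 with NO-naproxen and 0.30 ± 0.23 with naproxen.

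Of the genes that process SREBP and sense sterols, 6 of 8 were measured. With NO-naproxen 1 was higher at an unadjusted p under 0.05 (Mbtps2, a protease that releases SREBP, at 0.55 ± 0.25), where 5.49% of all probe sets were. The median of the list was 0.22. With naproxen 0 passed and the median was 0.12. Srebf1, which codes for the SREBP of fatty acid synthesis, averaged 3571 ± 327 with NO-naproxen and 2413 ± 227 with naproxen (intensity, SD, n = 4). Arrays of these diets did not overlap, as for 1.17% of all probe sets in either direction. The log2 fold change of NO-naproxen against naproxen was 0.56 ± 0.23 (SE) at an unadjusted limma p of 0.0278 (adjusted p = 1.000). In that comparison 1.92% of all probe sets were under 0.05. The controls, at 1633 to 4212, spanned both drug diets. The other protease gene, Mbtps1, had 0.38 ± 0.22 with NO-naproxen and 0.18 ± 0.22 with naproxen against control, and Scap 0.17 ± 0.16 with NO-naproxen and 0.076 ± 0.16 with naproxen.

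For uptake and trafficking, 6 of 10 genes were measured and 0 passed at an unadjusted p under 0.05. The median log2 fold change was 0.10 with NO-naproxen and 0.063 with naproxen. Npc1, which moves cholesterol out of lysosomes, had 0.41 ± 0.25 with NO-naproxen and 0.14 ± 0.25 with naproxen. The uptake regulator Mylip had 0.15 ± 0.20 with NO-naproxen and 0.049 ± 0.20 with naproxen, the HDL receptor gene Scarb1 0.12 ± 0.19 with NO-naproxen and 0.088 ± 0.19 with naproxen, and Npc2 -0.084 ± 0.18 with NO-naproxen and 0.034 ± 0.18 with naproxen. All 8 genes of esterification, export and the sterol receptor LXR were measured. With NO-naproxen 8 of 8 were above 0, where 49.9% of all probe sets were below 0. Their median was 0.28, beside 0.000437 over all probe sets and 0.068 over all but the dimmest 30%. Soat2, which makes cholesterol esters, averaged 546 ± 121 with NO-naproxen, 477 ± 57.8 with naproxen and 408 ± 38.7 in controls (intensity, SD, n = 4). It was the 1 gene of the list at an unadjusted p under 0.05 with NO-naproxen (0.39 ± 0.18), where 5.49% of all probe sets were higher. With naproxen the median was 0.12, and the 1 gene at that p was Abcg5, where 3.16% of all probe sets were higher. Abcg5, which codes for a subunit of the biliary sterol exporter, had 1.17 ± 0.41 with overlapping arrays (294 to 718 with naproxen, 126 to 382 in controls). Soat1 had 0.32 ± 0.20 with NO-naproxen and 0.25 ± 0.20 with naproxen, and Nr1h3, the gene of an LXR, 0.32 ± 0.22 with NO-naproxen and -0.016 ± 0.22 with naproxen.

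Of the other isoprenoid branches, 7 of 10 genes were measured, and 0 passed at an unadjusted p under 0.05 with either drug. With NO-naproxen 7 of 7 were above 0, where 49.9% of all probe sets were below 0, and the median was 0.27. With naproxen 6 were above 0, where 54.1% of all probe sets were below 0, and the median was 0.09. Pggt1b, a subunit of the enzyme that attaches geranylgeranyl groups, had log2 fold changes of 0.47 ± 0.24 with NO-naproxen and 0.24 ± 0.24 with naproxen. Dhdds, which makes dolichol, had 0.38 ± 0.19 with NO-naproxen and 0.28 ± 0.19 with naproxen, and Coq2 of ubiquinone synthesis 0.27 ± 0.15 with NO-naproxen and 0.069 ± 0.15 with naproxen. The prenyl transferase subunit Fnta had 0.32 ± 0.21 with NO-naproxen and 0.09 ± 0.21 with naproxen.

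**Figure D5:**
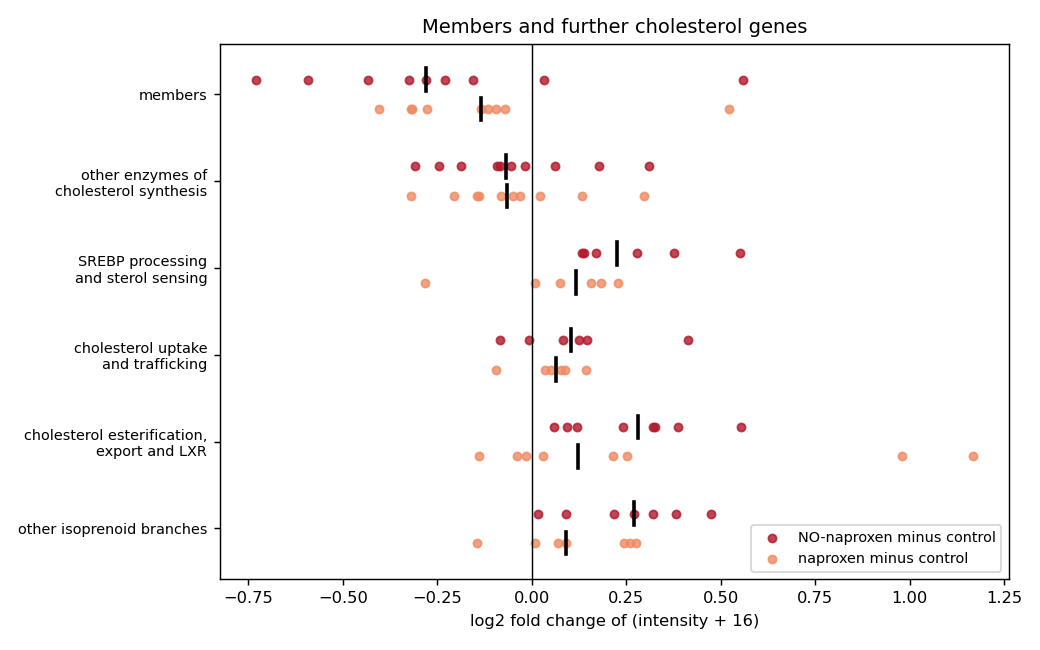
Log2 fold change of (intensity + 16) of every measured gene by list, for NO-naproxen against control (upper row of each list) and naproxen against control (lower row), with a black bar at the median. The 9 members have medians of -0.28 and -0.13, and the other synthesis enzymes of -0.069 and -0.065.

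Levels of clock genes and of markers of other liver cells are given beside these results, with no adjusted limma p under 0.05 for any of them in the 3 comparisons. The clock repressor gene Nr1d1 had intensities of 257 to 1467 in NO-naproxen livers, 493 to 892 in naproxen livers and 137 to 343 in control livers, with log2 fold changes of 1.73 ± 0.42 with NO-naproxen and 1.72 ± 0.42 with naproxen. Per2, another clock gene, had 88.1 to 189.8, 58.0 to 124 and 126 to 371 in the same order, with -0.99 ± 0.31 with NO-naproxen and -1.42 ± 0.31 with naproxen. Summed over 7 Kupffer cell and macrophage markers, intensities were 3767 to 5974 in NO-naproxen livers, 3491 to 5006 in naproxen livers and 3081 to 4471 in control livers. Over 3 sinusoidal endothelial markers they were 1137 to 1446 in NO-naproxen livers, 1349 to 1552 in naproxen livers and 921 to 1228 in control livers, and over 6 stellate cell markers 2643 to 3617 in NO-naproxen livers, 2505 to 3389.9 in naproxen livers and 1937 to 3065 in control livers. Of 3 cholangiocyte markers 2 were within the receptor background, as were both lymphocyte markers. Their part in the differences of the 9 genes was not tested.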

How the data were processed

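Liver RNA of 12 rats was measured on Affymetrix whole-transcript arrays. The deposited values are linear probe set intensities, which the submitters' processing notes tie to Expression Console 1.1.1 and rn4. How they were summarised and normalized was not stated in the sources used here. Groups and replicate numbers came from sample titles. Having 4 arrays per diet limits the precision. For every probe set log2(intensity + 16) was fitted with limma 3.58.1 in R 4.3.3 (lmFit and eBayes, all 12 arrays, 3 diets, 2-sided) and adjusted by Benjamini-Hochberg over 19418 probe sets, so fold changes understate those of dim probe sets. The fit was tested on simulated data with independent noise and differences larger than those of the 9 genes, so differences of their size were not tested. Correlations used 100000 permutations of the 12 arrays across diets. Alternatives were added constants of 1 and 64, median centring, quantile normalization, no probe sets from the dimmest 30%, a trended spread, only the 2 diets compared, array weights, array spread as a covariate, leaving out the 2 narrowest arrays, a replicate block and each array left out. Named are the 9 members, up to 4 genes of smallest p per further list, and the 5 genes most like Sqle and Msmo1. The members and lists were chosen with earlier results of these data known. Coordinates belong to the RefSeq promoter table, not to the arrays.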

Additional observations from a re-analysis of the deposited data

Results flagged for a closer look

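Mvd in control livers had 1 array apart from the others. Replicate 1 measured 160, against 227 to 241 in the other 3 controls, and its gap to the nearest was 0.858 of the group's range on the log2 scale, above Dixon's critical value for 4 samples at the 95% level. Chance gives about 1 such array in 20 groups, and 27 groups were looked at. With that array left out, the log2 fold change of Mvd was -0.56 for NO-naproxen and -0.45 for naproxen against control.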

How the results depend on the processing

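Of 513 member fold changes recomputed, 489 kept their direction and 24 turned. The cause was not tested. Those of Sqle, Msmo1, Mvd and Fdft1 did not turn in any of the alternatives run. Srebf2 with NO-naproxen against control was -0.12 after quantile normalization, -0.21 with the spread covariate and -0.085 without the 2 narrowest arrays. After median centring, which moved the median of all probe sets by 0.116 for naproxen against control, Srebf2 was 0.044 and Insig1 0.021 in that comparison. For NO-naproxen against naproxen, Ggps1 was -0.038 after quantile normalization and -0.010 after median centring, and Tm7sf2 was 0.0012 with the covariate. With each array left out, the ranges that crossed 0 were, for NO-naproxen against control, -0.033 to 0.12 for Srebf2 and -0.26 to 0.013 for Insig1. For naproxen against control they were -0.29 to 0.10 for Idi1 and -0.14 to 0.058 for Srebf2. For NO-naproxen against naproxen they were -0.38 to 0.014 for Idi1, -0.17 to 0.21 for Ggps1, -0.087 to 0.10 for Tm7sf2, -0.026 to 0.18 for Srebf2 and -0.16 to 0.11 for Insig1.

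Members past the study's criterion with NO-naproxen against control numbered 2, and 1 with a constant of 64, 1 without the 2 narrowest arrays, 3 after quantile normalization, 3 with array weights and 1 to 3 with each array left out. With naproxen against control they numbered 1 after quantile normalization, 1 after median centring and 0 to 1 with each array left out. Members at an unadjusted p under 0.05 with naproxen against control numbered 2 after quantile normalization, 2 with a trended spread, 2 with only the 2 diets, 3 with array weights, 0 with the covariate, 0 without the narrowest arrays and 0 to 3 with each array left out. With NO-naproxen against control they numbered 4, and 1 without the narrowest arrays, 6 with a constant of 64, 5 after quantile normalization, 5 with a trended spread and 2 to 4 with each array left out. With NO-naproxen against naproxen 1 member passed with a constant of 64, quantile normalization, median centring, the filter, a trended spread, array weights or the covariate, and 0 to 1 with each array left out. The share of all probe sets at an unadjusted p under 0.05 was not computed for the alternatives. Changes in the member counts at that p therefore cannot be told apart from changes over the whole array.

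Of all probe sets, the criterion was met for NO-naproxen against control by 738 (346 higher and 392 lower), by 154 with a constant of 64 (103 higher and 51 lower), 2527 with array weights, 236 with the covariate (144 higher and 92 lower), 215 without the narrowest arrays (139 higher and 76 lower) and 284 to 2570 with each array left out. Median centring gave 632 higher and 266 lower, and the filter 324 higher and 212 lower. For naproxen against control it was met by 1135 (170 higher and 965 lower), by 191 with a constant of 64 (51 higher and 140 lower), 752 after the filter, 332 with the covariate (139 higher and 193 lower), 291 without the narrowest arrays (114 higher and 177 lower) and 574 to 2973 with each array left out. Quantile normalization gave 371 higher and 603 lower, and median centring 463 higher and 483 lower. For NO-naproxen against naproxen it was met by 111 (83 higher and 28 lower), 299 with a constant of 1, 8 with 64, 40 after the filter, 304 with array weights and 98 to 331 with each array left out, with 51 higher and 46 lower after quantile normalization and 55 higher and 46 lower after median centring. The adjusted threshold was passed by 2 probe sets with array weights and 0 to 4 with each array left out for NO-naproxen against control, and by 0 to 3 with each array left out for naproxen against control.

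With the replicate number as a block, unadjusted p-values for NO-naproxen against control were 0.00785 for Sqle, 0.00983 for Msmo1 and 0.0540 for Mvd, and for naproxen against control 0.0597 for Msmo1 and 0.0472 for Ggps1. The block moved the criterion's count to 820 and 1193 probe sets in those comparisons. Same-numbered arrays had correlated deviations above 0.1 in 4 of 12 pairs (-0.382 to 0.481). Differently numbered arrays were not compared, so whether a shared number marks a shared batch was not tested. Averaging probe sets per gene gave no other value, since each member has 1 probe set. Signal over background was least for Ggps1.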
